A study of Mus musculus with 12 samples.

Results

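The Ly6 genes described here are the 6 rows of the deposited expression table, out of 24197, whose symbol is LY6A, LY6C1, LY6C2, LY6D, LY6E or LY6K (Ly6a, Ly6c1, Ly6c2, Ly6d, Ly6e and Ly6k below). They were chosen by name, and all 6 symbols were found. Ly6 proteins belong to the Ly6/uPAR family: small, disulfide-rich proteins that are held on the outer face of the cell by a glycosylphosphatidylinositol (GPI) lipid anchor. In mice the family is best known from blood cells, where Ly6a (stem cell antigen, Sca-1) and the Ly-6C antigens made by Ly6c1 and Ly6c2 are standard surface markers, and several members are known to respond to interferons.

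RNA was sequenced from E0771 cells, an established mouse mammary tumor line, in 4 groups of 3 independent cultures. Control cells received no 4HC, antibody or IFNβ and were collected at 72 h. The 4HC group was exposed for 4 h to 4.2 µM 4HC (4-hydroperoxy-cyclophosphamide, an activated form of the alkylating drug cyclophosphamide), washed, and collected 68 h later, at 72 h. The 4HC + anti-IFNAR1 group received the same drug exposure together with 10 µg/mL of the monoclonal antibody MAR1-5A3, which blocks the shared receptor chain of type I interferons and was also present after the wash. No group received a control antibody or the antibody without 4HC. The IFNβ group was exposed to 27.8 U/mL recombinant interferon-β for 4 h and collected 2 h later by the sample labels, whereas the protocol text of the labels names 68 h for it, so the sample labels were followed. The comparison of 4HC with control asks which genes respond to the drug. Those with IFNβ and with the antibody ask which of these genes respond to type I interferon and which responses depend on its receptor.

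All values below are the group means deposited by the authors, in FPKM (fragments counted on a gene, divided by its transcript length and by library size), a level per transcript length that can be compared between genes. The table used here holds a single mean for each group and no value for a library, so no spread, interval or test could be computed, and whether neighbouring groups in an order of levels differ beyond the spread between cultures could not be told. Differences are given as log2 of the ratio of group means after adding 0.1 FPKM to each, which understates the change of low genes. A gene was compared where its mean was at least 0.5 FPKM in either group, and was counted as past 2-fold where this difference exceeded 1 in size. The comparisons against control share the same control cultures, and those with 4HC share the 4HC cultures.

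Markers of other cell types were at or near 0 with few exceptions. Of 13 leukocyte markers found in the table, 6 were at 0 in control, 4 with 4HC, 3 with 4HC + anti-IFNAR1 and 6 with IFNβ, Ptprc (the pan-leukocyte antigen CD45) was at most 0.0114 FPKM in any group, and their summed level was 1.68, 3.31, 4.60 and 1.97 FPKM in that order. Most of that sum was Lyz2, at 1.30 to 2.50 FPKM, and S100a8, at 0.244 to 1.56 FPKM. The 5 endothelial markers summed to 0.606 to 0.709 FPKM, most of it Pecam1. Of the epithelial markers, the keratin Krt8 was at 46.5 to 75.3 FPKM, whereas Krt18, Epcam, Cdh1 and Krt5 were all under 0.1 FPKM in every group and Krt14 was at 0.0957 to 0.643 FPKM, so the defining epithelial markers other than Krt8 were near 0 in this mammary line. The part of these markers in the Ly6 levels was not tested. In bulk RNA, more cells expressing a gene and more RNA per cell cannot be told apart.

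The 6 genes lie on chromosome 15 of the mm9 build within 349.9 kb. In order of coordinates they are Ly6d at chr15:74592485-74593997, Ly6k at chr15:74627303-74630398, Ly6e at chr15:74785480-74790335, Ly6a at chr15:74825306-74828461, Ly6c1 at chr15:74874447-74879267 and Ly6c2 at chr15:74938590-74942379. The widest gap between neighbours in this order, 155.1 kb, separates Ly6k from Ly6e, and the others are 33.3 to 59.3 kb. Ly6e lies on the plus strand and the others on the minus strand.

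The sequences bear on how far the levels of single members can be read, since reads from near-identical copies may be assigned to either. Over the coding sequence of the GENCODE transcripts (release for GRCm38), Ly6c1 and Ly6c2 matched at 387 of 396 aligned bases (97.7%), Ly6a matched Ly6c1 at 82.0% and Ly6c2 at 81.7%, and all other pairs matched at 46.8 to 53.8%. The first 180 coding bases of these copies, counted from the start codon, are shown because they hold most of the differences between Ly6c1 and Ly6c2. Capitals mark the bases at which Ly6c1 and Ly6c2 differ from each other (6 of the 180) and, in Ly6a, those that differ from Ly6c1 (26 of the 180).
Ly6c1: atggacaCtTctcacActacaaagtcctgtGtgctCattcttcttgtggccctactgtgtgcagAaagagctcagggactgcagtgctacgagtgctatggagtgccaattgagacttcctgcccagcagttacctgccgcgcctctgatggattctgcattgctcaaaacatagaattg
Ly6c2: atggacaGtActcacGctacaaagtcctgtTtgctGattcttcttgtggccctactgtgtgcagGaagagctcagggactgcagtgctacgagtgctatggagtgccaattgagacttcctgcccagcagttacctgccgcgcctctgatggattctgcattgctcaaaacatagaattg
Ly6a: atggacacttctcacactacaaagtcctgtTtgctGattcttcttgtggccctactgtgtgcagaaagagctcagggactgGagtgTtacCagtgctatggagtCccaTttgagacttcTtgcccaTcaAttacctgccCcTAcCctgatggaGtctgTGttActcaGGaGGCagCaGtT

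Of all 100-base windows of the main transcript, 15.3% of those of Ly6c1 and 15.8% of those of Ly6c2 were found unchanged in the other, and none of those of Ly6a, Ly6d, Ly6e or Ly6k were found in any other gene. Of 50-base windows, 36.7% for Ly6c1, 33.0% for Ly6c2 and 8.05% for Ly6a were shared with another gene, and again none for Ly6d, Ly6e and Ly6k. The values of Ly6c1 and Ly6c2 are therefore given as uncertain, and the log2 difference of their sum is given with them in each comparison.

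Promoter sequence from RefSeq (GRCm38.p6) was matched for Ly6c1 and Ly6c2. The table used here held none for Ly6a, Ly6d, Ly6e and Ly6k. The 250 bases before a start site of Ly6c1 (chr15:75048838-75049087, minus strand) and of Ly6c2 (chr15:75111972-75112221, minus strand) are shown because both genes were higher with 4HC and with IFNβ. Each gene has 2 listed start sites, and the first listed was taken. Capitals mark runs of at least 12 bases that are identical at aligned positions of both promoters. Runs that both share at positions not aligned with each other are in lower case.
Ly6c1 promoter: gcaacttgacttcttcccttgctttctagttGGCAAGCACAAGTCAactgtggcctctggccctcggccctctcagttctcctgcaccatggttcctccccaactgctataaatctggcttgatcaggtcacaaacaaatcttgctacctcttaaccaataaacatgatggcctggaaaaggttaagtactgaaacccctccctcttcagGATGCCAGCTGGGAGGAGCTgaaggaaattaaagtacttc
Ly6c2 promoter: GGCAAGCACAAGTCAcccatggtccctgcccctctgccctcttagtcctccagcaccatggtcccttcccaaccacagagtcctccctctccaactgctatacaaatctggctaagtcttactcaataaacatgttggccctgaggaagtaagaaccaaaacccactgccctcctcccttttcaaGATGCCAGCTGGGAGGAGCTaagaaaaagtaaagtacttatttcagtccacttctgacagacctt

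These promoters were less alike than the coding sequences, with 164 identical bases over 284 aligned columns (57.7%). The table holds 2 start-site windows of 300 bases for each gene, and each was searched on both strands. GAAA followed by any 2 bases and GAAA again, a form of the interferon-stimulated response element, was found in none of the 4 windows and in 3.44% of all 32851 promoter windows of the same length. TTCNNNGAA, the core of the gamma-activated sequence, was found in none of the 4 and in 8.30% of all windows. TATAAA was found in 1 of the 2 Ly6c1 windows, in neither Ly6c2 window and in 13.6% of all windows. The absence of a match says only that these letters are not in these windows.

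In untreated E0771 cells the Ly6 transcripts covered a wide range of levels. Ly6e (a GPI-anchored protein that in mice is the placental receptor of syncytin-A and that restricts coronavirus entry) was the highest at 53.8 FPKM, at percentile 97.6 of all rows. Ly6a followed at 20.1 FPKM (percentile 92.1) and Ly6c1 at 7.25 FPKM (percentile 79.8). Ly6c2 (0.0751 FPKM) and Ly6d (0.0391 FPKM) were close to 0, and Ly6k was listed at 0 in all 4 groups. Ly6k is known in mice from male germ cells, where it partners Tex101, another Ly6/uPAR protein, and Tex101 was itself at 0.0255 to 0.226 FPKM here. The summed level of the 6 genes was 81.3 FPKM in control, 241.3 FPKM with 4HC, 93.3 FPKM with 4HC + anti-IFNAR1 and 230.2 FPKM with IFNβ. Ly6e made up 66.2% of that sum in control and 60.0% with 4HC, and Ly6a 24.7% and 31.1%.

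**Figure D1:**
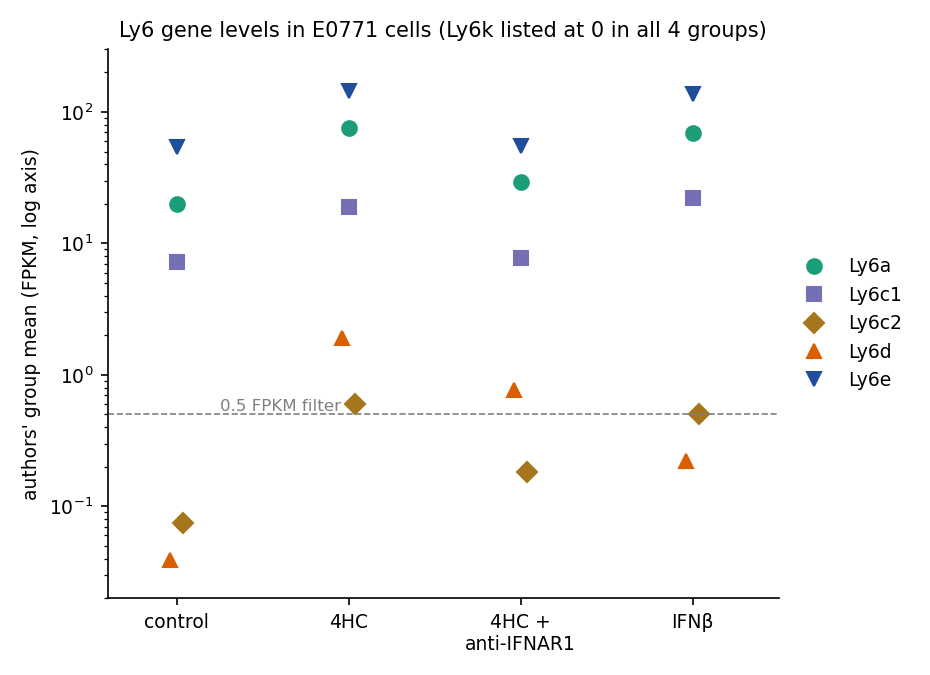
Authors' group mean FPKM (log axis) of the Ly6 genes in each of the 4 groups, each symbol a single mean of 3 cultures with no error available. Ly6e, Ly6a and Ly6c1 sit at 7.25 to 53.8 FPKM in control and at 18.9 to 144.9 FPKM with 4HC, while Ly6c2 and Ly6d reach the 0.5 FPKM filter (dashed line) in some groups only.

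Of the 6 genes, 5 were higher with 4HC than in control by more than 2-fold, and the remaining gene, Ly6k, was at 0. Ly6e, already among the most abundant transcripts, was at 53.8 FPKM in control, 144.9 FPKM with 4HC, 55.3 FPKM with 4HC + anti-IFNAR1 and 138.0 FPKM with IFNβ. Its 2 high groups were thus 4HC and IFNβ, at nearly the same level, and its mean with 4HC was 2.69-fold that of control (log2 difference 1.43). Ly6a was at 20.1, 75.0, 29.2 and 69.5 FPKM in control, 4HC, 4HC + anti-IFNAR1 and IFNβ, a 3.74-fold level with 4HC over control (log2 difference 1.90). Its order of groups was 4HC, IFNβ, 4HC + anti-IFNAR1 and control from high to low, and its mean with 4HC stood at percentile 98.5 of all rows.

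Ly6c1 was at 7.25, 18.9, 7.80 and 22.0 FPKM in the same order of groups, 2.60-fold of control with 4HC (log2 difference 1.37). It was the only one of the 6 with a higher mean under IFNβ than under 4HC. Its near-copy Ly6c2 was at 0.0751, 0.595, 0.182 and 0.502 FPKM, so that it passed the filter through the 4HC and IFNβ groups, where it was high, and by little. Its log2 difference with 4HC was 1.99 and was 0.57 when 1 FPKM was added in place of 0.1. The sum of Ly6c1 and Ly6c2 gave a log2 difference of 1.40 for 4HC against control.

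Ly6d (known in mice as a marker of B-lineage-committed lymphoid progenitors and of keratinocytes) differed from the rest. It was at 0.0391 FPKM in control, 1.92 FPKM with 4HC, 0.770 FPKM with 4HC + anti-IFNAR1 and 0.222 FPKM with IFNβ. Its mean was 49.0-fold of control with 4HC (log2 difference 3.86), and 47 of the 11016 compared genes showed a larger difference. The control mean is close to 0, so that the size of the difference depends on the amount added before taking logs, with values of 5.29 for 0.01 FPKM and 1.49 for 1 FPKM. The keratinocyte keratin Krt14 was at 0.0957, 0.509, 0.643 and 0.112 FPKM in control, 4HC, 4HC + anti-IFNAR1 and IFNβ, the leukocyte gene S100a8 at 0.244, 1.11, 1.56 and 0.380 FPKM, and Csf1r, a macrophage marker, at 0.00435, 0.145, 0.201 and 0.0127 FPKM. These 3 genes were highest with 4HC + anti-IFNAR1, where Ly6d was below its mean with 4HC. The part of such cells or of their genes in the level of Ly6d was not tested.

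Across the table, 559 of 11016 compared genes (5.07%) were higher with 4HC by more than 2-fold, and 49 were lower. All 5 compared Ly6 genes were among the 559. Ly6c2 and Ly6d were compared only because of their level with 4HC. The other compared members, Ly6a, Ly6c1 and Ly6e, were above the filter in control too, with a median log2 difference of 1.43 against -0.03 over the 10435 genes above the filter in both groups, of which 286 were higher by more than 2-fold.

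**Figure D2:**
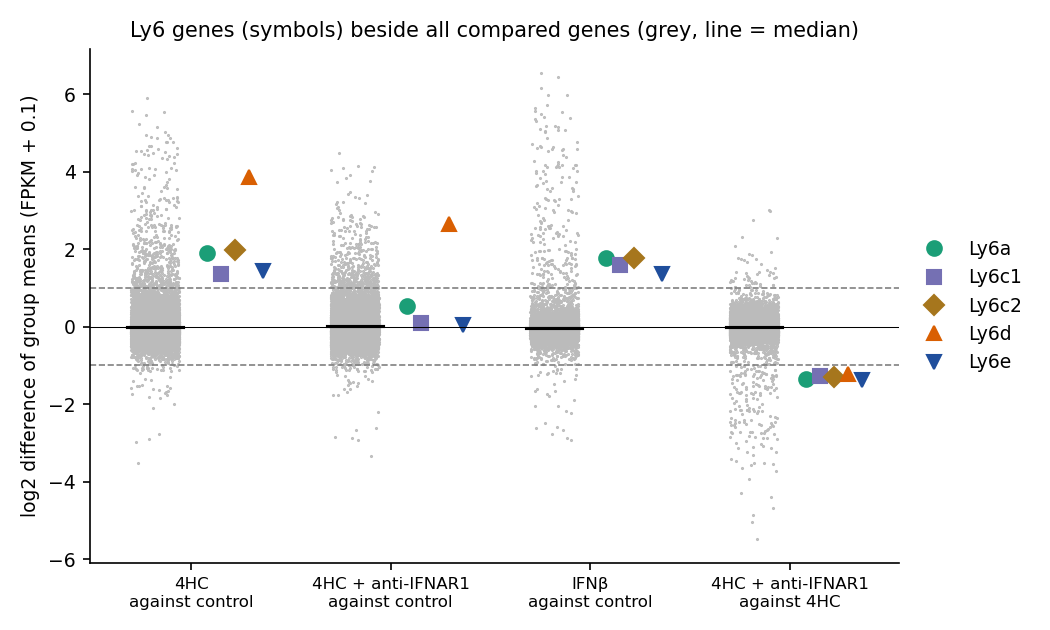
Log2 difference of group means (0.1 FPKM added) in the 4 comparisons, for the compared Ly6 genes (symbols) and for all compared genes (grey points, black line at their median), with dashed lines at 2-fold. Ly6 genes lie at 1.37 to 3.86 for 4HC against control and at -1.39 to -1.21 for 4HC + anti-IFNAR1 against 4HC.

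Ly6e, Ly6a, Ly6c1 and Ly6c2, which follow each other along the chromosome, were also higher than control after the short exposure to IFNβ. By the sample labels the IFNβ cells were collected 2 h after the wash and the control cells at 72 h. The paper's methods also seed more cells per well for IFNβ than for drug treatment of E0771 cells. Effects of IFNβ, time in culture and seeding cannot be told apart in this comparison. Ly6a was 3.46-fold of control with IFNβ (log2 difference 1.79), Ly6c1 3.04-fold (1.59), Ly6e 2.56-fold (1.36) and Ly6c2 6.69-fold (1.78). Ly6c2 lay just at the filter, and its log2 difference was 0.48 with 1 FPKM added. The sum of Ly6c1 and Ly6c2 gave 1.61. Ly6d stayed under the filter at 0.222 FPKM and was not compared, its 2 means giving a log2 value of 1.21. In all, 234 of 10677 compared genes (2.19%) were higher by more than 2-fold with IFNβ and 34 were lower, or 337 and 153 when each group was scaled to the same FPKM sum. The 4 compared Ly6 genes were all among the higher ones, Ly6c2 being compared only because of its level with IFNβ. For Ly6a, Ly6c1 and Ly6e the median was 1.59, against -0.03 over the 10358 genes above the filter in both groups, of which 135 were higher by more than 2-fold.

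The levels with IFNβ and with 4HC are given side by side, since the cells were collected 2 h and 68 h after the wash. The IFNβ mean was 0.926 times the 4HC mean for Ly6a, 0.952 times for Ly6e, 1.17 times for Ly6c1 and 0.844 times for Ly6c2. For Ly6d it was 0.116 times. For the interferon-stimulated genes Isg15, Ifit1, Irf7 and Mx1 the IFNβ mean was 1.42 to 2.63 times the 4HC mean. It was 2.86 times for Igtp, 1.14 times for Oasl1 and 0.392 times for the chemokine gene Cxcl10.

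Every compared Ly6 gene had a lower mean with 4HC + anti-IFNAR1 than with 4HC. The 4HC mean was 2.62-fold that with antibody for Ly6e (log2 difference of antibody against 4HC -1.39), 2.57-fold for Ly6a (-1.36), 2.42-fold for Ly6c1 (-1.26), 3.27-fold for Ly6c2 (-1.30) and 2.49-fold for Ly6d (-1.21). With 0.1 FPKM added, these 5 differences were close to each other, although the levels with 4HC ranged from 0.595 to 144.9 FPKM. That of Ly6c2 was -1.66 with 0.01 FPKM added. Across the table, 169 of 11083 compared genes (1.52%) were lower by more than 2-fold with the antibody and 51 were higher. Ly6c2 was compared only because of its level with 4HC. The other 4 were above the filter in both groups, with a median difference of -1.31 against -0.01 over the 10771 genes above the filter in both, of which 110 were lower by more than 2-fold. The sum of Ly6c1 and Ly6c2 gave -1.28. With 1 FPKM added before taking logs, Ly6c2 and Ly6d no longer passed 2-fold, at -0.43 and -0.72.

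How near each gene was to control with the antibody present varied among the members. Ly6e was at 55.3 FPKM with 4HC + anti-IFNAR1 and 53.8 FPKM in control, a log2 difference of 0.04 that turned to -0.054 when the groups were scaled to the same FPKM sum. Ly6c1 was at 7.80 against 7.25 FPKM (log2 difference 0.10, 0.01 under that scaling, and 0.12 for the sum of Ly6c1 and Ly6c2). Ly6a was at 29.2 against 20.1 FPKM, 1.46-fold (log2 difference 0.54). Ly6d was at 0.770 against 0.0391 FPKM (log2 difference 2.64, and 0.77 with 1 FPKM added), and Ly6c2, at 0.182 and 0.0751 FPKM, was not compared. Of 10995 compared genes, 490 (4.46%) were higher than control by more than 2-fold in this group and 49 were lower. Of the 4 compared Ly6 genes only Ly6d was past 2-fold, and it was compared only because of its level in this group. Of Ly6a, Ly6c1 and Ly6e, which were above the filter in both groups, none was past 2-fold, and their median was 0.10 against 0.00 over the 10450 genes above the filter in both.

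The same can be put as the percent of the 4HC induction left with the antibody, which is the mean with 4HC + anti-IFNAR1 minus control over the mean with 4HC minus control, times 100. It was 1.65% for Ly6e (-2.08% when the groups were scaled to the same FPKM sum), 4.67% for Ly6c1 (0.412% under that scaling), 16.6% for Ly6a, 20.6% for Ly6c2 and 38.9% for Ly6d. The sum of Ly6c1 and Ly6c2 gave 5.35%. The order of the members was the same when log2 differences were used in place of FPKM, with values of 2.77%, 7.51%, 28.4%, 34.6% and 68.5%. Over the 559 genes past 2-fold with 4HC the median was 73.7% (quartiles 26.6 and 99.5%). Over the 185 of them whose log2 difference with IFNβ also exceeded 1 it was 12.7% (quartiles 5.51 and 33.7%). The filter was not applied to the IFNβ comparison in choosing these 185, so that Ly6d was among them. As deposited, Ly6e and Ly6c1 lay at percentiles 15.1 and 23.2 of those 185 values, Ly6a at 54.1, Ly6c2 at 61.6 and Ly6d at 77.3.

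Genes known to respond to type I interferon gave a frame for these values. Irf7 (a transcription factor of the interferon response) was at 0.912%, Igtp at 6.38%, Mx1 at 9.65% and Isg15 at 12.7%. Ifit1 was at 23.6% and Oasl1 at 26.2%. Cxcl10 was at 63.2%, and Ifnb1, the gene of interferon-β itself, at 85.4%, with 0.820 FPKM under 4HC and 0.701 FPKM with the antibody added. As deposited, Ly6d lay between Oasl1 and Cxcl10.

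**Figure D3:**
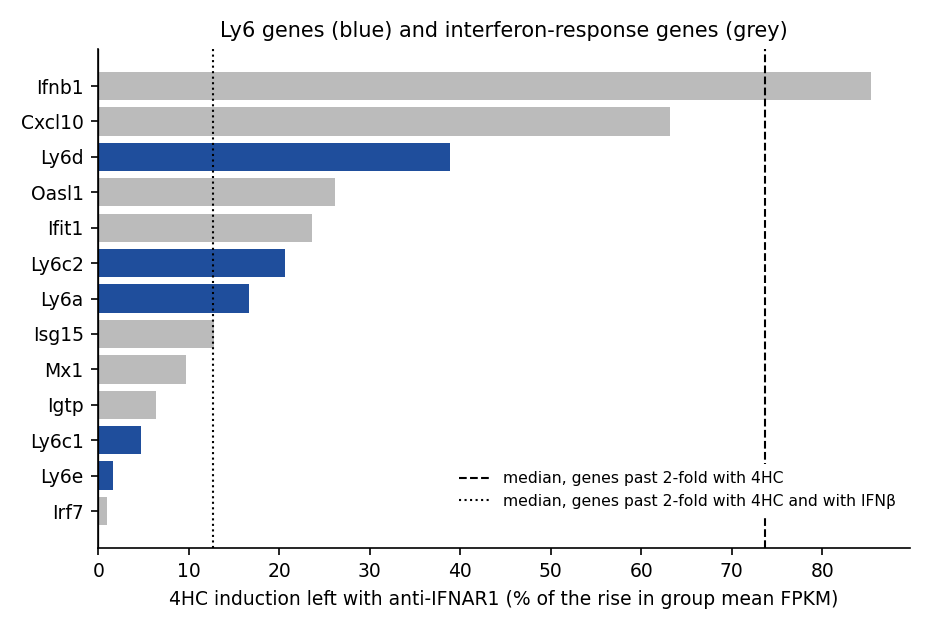
Percent of the 4HC induction of group mean FPKM left with anti-IFNAR1, for the 5 Ly6 genes past 2-fold with 4HC (blue) and for interferon-related reference genes (grey), with no error available. The values of Ly6 genes run from 1.65% for Ly6e to 38.9% for Ly6d, and the lines mark the medians of 73.7% over all genes past 2-fold with 4HC (dashed) and 12.7% over those past 2-fold with IFNβ as well (dotted).

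Transcripts of the interferon receptors differed by less than 2-fold between groups. Ifnar1, the chain that the antibody binds, was at 3.49, 3.56, 3.42 and 3.07 FPKM in control, 4HC, 4HC + anti-IFNAR1 and IFNβ, and Ifnar2 at 2.95, 3.69, 3.88 and 3.43 FPKM. Ifngr2, a chain of the interferon-γ receptor, was at 4.39, 7.16, 7.65 and 4.40 FPKM, with log2 differences from control of 0.69 with 4HC and 0.79 with 4HC + anti-IFNAR1. Of the 4 receptor genes for interferon types I and II, none was past 2-fold in any comparison. Over 5 control genes (Actb, Gapdh, Hprt, Tbp and Ppia) the median log2 difference from control was -0.28 with 4HC, -0.18 with 4HC + anti-IFNAR1 and 0.04 with IFNβ.

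The other genes of the interval that holds the 6 Ly6 genes were nearly silent. The table lists 7 further genes between Ly6d and Ly6c2, of which 3 were at 0 in all groups and none reached 0.5 FPKM in any. The highest was Ly6i, which lies between Ly6e and Ly6a, at 0.0553 FPKM in control, 0.363 FPKM with 4HC, 0.151 FPKM with 4HC + anti-IFNAR1 and 0.281 FPKM with IFNβ. Its order of groups was that of Ly6a, Ly6c2 and, as deposited, Ly6e, at a level below the filter, and it shares 50-base stretches with Ly6a. The steroid hydroxylase genes Cyp11b1 and Cyp11b2, between Ly6k and Ly6e, were at 0.

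**Figure D4:**
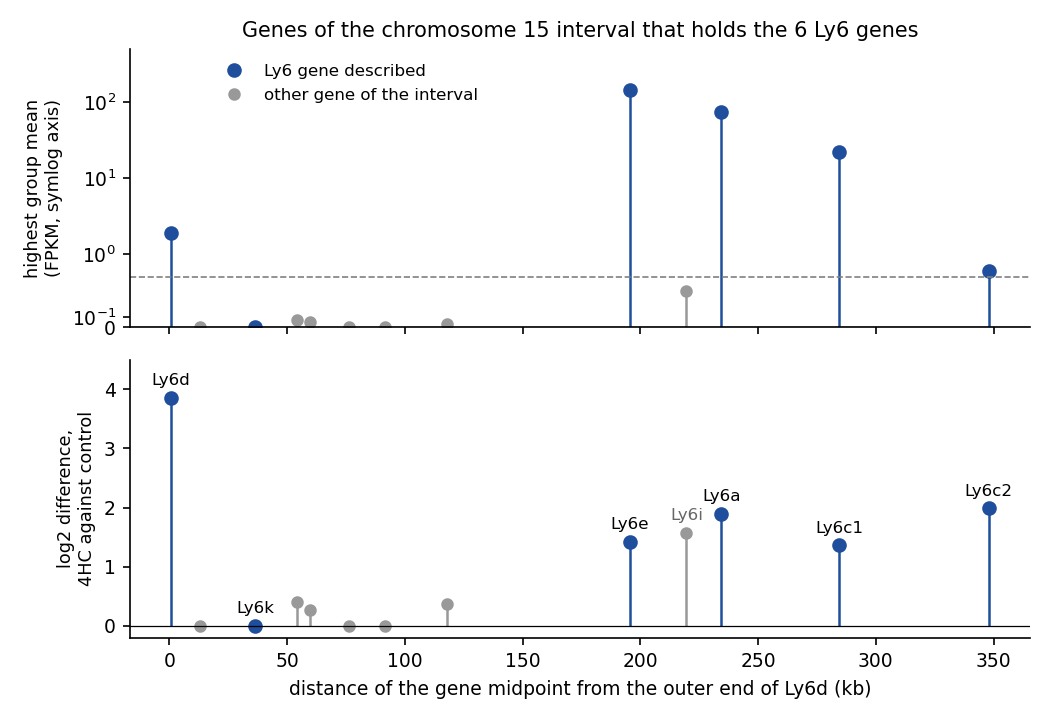
The 13 genes of the chromosome 15 interval in order of position, by the distance of each gene's midpoint from the outer end of Ly6d in kb, with the highest of the 4 group means (top, FPKM, linear up to 0.5 and logarithmic above) and the log2 difference for 4HC against control (bottom). The 5 Ly6 genes above the 0.5 FPKM filter (dashed) have log2 differences of 1.37 to 3.86, and the other genes of the interval stay under 0.5 FPKM.

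Elsewhere in the family little was expressed. Of 32 other genes with a Ly6/uPAR domain, 30 were in the table, and 4 reached 0.5 FPKM in any group. Plaur, the urokinase receptor that gave the family part of its name, was at 24.5, 31.3, 31.3 and 29.1 FPKM in control, 4HC, 4HC + anti-IFNAR1 and IFNβ. Lynx1, a modulator of nicotinic acetylcholine receptors, was at 0.723, 1.54, 1.11 and 1.16 FPKM, a log2 difference of 0.998 with 4HC that lay just under 2-fold. Cd59a, an inhibitor of the complement membrane attack complex, was at 0.447, 0.675, 0.897 and 0.379 FPKM. Psca was at 0.193, 0.305, 0.522 and 0.300 FPKM. It was the only 1 of these genes past 2-fold, with 4HC + anti-IFNAR1 against control (log2 difference 1.08). It was compared there only because of its level in that group, by little above the filter, and 4.46% of all compared genes were higher there. The highest mean of Cd59a and of Psca was that with the antibody, unlike any of the 6 Ly6 genes. That of Plaur was too, though barely, at 31.34 against 31.25 FPKM with 4HC.

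The members fell apart in how their 3 differences from control combined. Likeness was measured as the Euclidean distance between genes over the log2 differences of 4HC, 4HC + anti-IFNAR1 and IFNβ from the shared control, in 9509 genes of at least 1 FPKM in any group. Ly6c1 and Ly6e lay 0.25 apart, and Ly6c1 was the nearest of the 9509 genes to Ly6e. Ly6c2, which stayed under 1 FPKM and was not among them, lay 0.17 from Ly6a, and both lay 0.71 to 0.96 from Ly6c1 and Ly6e. Ly6d was 2.77 to 3.58 from the other 4. All distances used 0.1 FPKM added and were not computed with other amounts, on which those of Ly6c2 and Ly6d depend. With 0.01 and 1 FPKM added, the log2 difference of Ly6c2 with 4HC was 2.83 and 0.57, against 1.90 and 1.85 for Ly6a. That of Ly6d was 5.29 and 1.49.

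Among those 9509 genes, which do not include Ly6c2, the nearest to Ly6a was Tapbp (tapasin, of the class I peptide-loading complex) at a distance of 0.18, followed by H2-T10 at 0.25 and Bst2 (tetherin, which holds budding virions at the cell surface) at 0.38. Tapbp was at 16.9, 65.1, 27.3 and 55.6 FPKM in control, 4HC, 4HC + anti-IFNAR1 and IFNβ. H2-T10 was at 0.188 FPKM in control and 1.09 FPKM with 4HC, so that its distance also depends on the amount added. Nearest to Ly6c1 were Znfx1, a helicase-domain RNA sensor, at 0.15, and the nonclassical class I genes H2-T22 and H2-T9, both at 0.23, whose values are uncertain because they are near-copies of each other. Ly6e was followed after Ly6c1 by Znfx1 at 0.27 and H2-M3, another nonclassical class I gene, at 0.37.

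With 0.1 FPKM added, Ly6d had no gene as near among the genes searched. Its nearest were Ccl2, a monocyte-attracting chemokine, at 0.85, Dll1, a Notch ligand, at 0.87, and Casp4, an inflammatory caspase, at 0.97. Ccl2 was at 8.06 FPKM in control, 71.5 FPKM with 4HC, 63.6 FPKM with 4HC + anti-IFNAR1 and 23.5 FPKM with IFNβ. Like Ly6d, these 3 genes had their IFNβ mean below that with 4HC + anti-IFNAR1. They were chosen by these same differences, so that the shared order follows largely from the choice and is no separate likeness. In Ly6a, Ly6c1, Ly6c2 and Ly6e the IFNβ mean was the higher.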

How the data were processed

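Total RNA of 12 cultures (4 groups of 3) was sequenced as stranded, polyA-selected libraries. The submitters' processing notes name alignment to mm9 with TopHat2, counting with featureCounts and comparison with edgeR, without versions, and how multiply mapped reads were treated is not given in the sources used here. The deposited table gives, for each gene, the authors' mean FPKM of each group, in 4 columns that were used and 4 repeats of them that were not (largest difference 0). Its other columns, the authors' ratios, signed fold changes and adjusted P values of their comparisons, were not used.

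The planned edgeR test could not be run on group means, and library totals are not part of the table, so no depth, interval or test is given. The FPKM of each group summed to 197196 to 217375 over all rows. Log2 differences used a pseudocount of 0.1 FPKM and a filter of 0.5 FPKM in either group. Pseudocounts of 0.01 and 1 FPKM, no filter and a filter of 1 FPKM, a 1.5-fold threshold, scaling each group to a sum of 1000000 or to a common median, and summing near-copies were tried as alternatives. Arithmetic was tested on simulated data.

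The members, lists and rules were chosen with earlier results of these data known. Named genes were the 6 members, for each member of at least 1 FPKM the 3 nearest genes, other Ly6/uPAR genes of at least 0.5 FPKM, fixed interferon, receptor, control and marker genes, and the genes of the interval. Krt14, S100a8 and Csf1r beside Ly6d, and Ly6i, Tex101, Cyp11b1 and Cyp11b2, were singled out after their values were seen. An item withheld for evaluation is not reported here. Tools were Python 3.11.15, numpy 2.4.6, pandas 2.3.3, Biopython 1.88 and matplotlib 3.10.9. Sequences were taken from GENCODE transcripts and RefSeq promoters (GRCm38.p6), and no coordinate was converted between builds.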

Additional observations from a re-analysis of the deposited data

How the results depend on the processing

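No paired analysis was possible because the table holds a single mean per group, and leaving out replicates was not possible for the same reason. Of 93 alternative log2 values of the members, 87 kept their direction and their side of 2-fold. With 1 FPKM added, 5 values for Ly6c2 and Ly6d came under 2-fold, the count past 2-fold with 4HC + anti-IFNAR1 against control changed from 1 to 0, and that of antibody against 4HC from 5 to 3. The filter of 1 FPKM, which leaves out Ly6d there, also gave 0 in the former. Scaling to the same FPKM sum turned Ly6e with 4HC + anti-IFNAR1 against control to -0.054 and its percent of induction left to -2.08%. With log2 differences, the percent left was 28.4% for Ly6a, 34.6% for Ly6c2 and 68.5% for Ly6d. Chosen after seeing the data, a filter of 0.5 FPKM in both groups gave 3 members past 2-fold in place of 5 with 4HC and 0 in place of 1 with 4HC + anti-IFNAR1 against control, and the sum of Ly6c1 and Ly6c2 gave 5.35% left in place of 20.6% for Ly6c2. The other 27 of 32 counts of members stayed within 1.5 times, and the other 12 of 17 percentages within 10 percentage points, although Ly6c1 went from 4.67% to 0.412% when scaled to the same sum. Without a filter, or scaled to the same sum, Ly6d was also compared with IFNβ and 5 members were past 2-fold.

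Over all genes, the counts of higher genes ranged from 255 to 1385 around 559 for 4HC, from 148 to 1142 around 490 for 4HC + anti-IFNAR1 and from 135 to 372 around 234 for IFNβ, and that of lower genes with the antibody against 4HC from 104 to 349 around 169. Scaling to the same sum also lowers both the filter and the pseudocount in effect, since it multiplies all values while both were kept. The changes under it therefore do not come from scaling alone. The share of higher genes among those past 2-fold with IFNβ was 87.3% as deposited and 68.8% after that scaling. It moved the median log2 ratio to control over 9483 genes by 0.05 for 4HC, -0.09 for 4HC + anti-IFNAR1 and -0.08 for IFNβ. Group means without a spread limit every value here, and those of Ly6c2 and Ly6d also depend on the pseudocount and the filter.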
